A study of Drosophila melanogaster with 40 samples.

Results

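A short pulse of ERK activity given by light was set against constant ERK activity from a mutant receptor, peak by peak, for binding of the repressor Capicua (Cic) in Drosophila embryos. All peaks of the authors' final list were taken, 89 with no other within 2 kb and 14 with a closer neighbour, out of 468 calls that MACS2 made in wild type against untagged embryos. Of the 40 samples of the series, 6 ChIP samples belong to the comparison, 3 of embryos given 5 min of blue light and 3 of embryos with active Torso. The light-treated embryos were (UAS-OptoSOS/gal4);(CicsfGFP/gal4), with the maternal triple driver MTD as gal4. The embryos with active Torso were (TorD4021/+);(cicsfGFP/+). Each was also set against undisturbed embryos, namely OptoSOS embryos of the same genotype without light and wild type embryos of genotype (+/+);(CicsfGFP/+), with 3 ChIP samples each. All 4 groups carried Cic tagged with super-folder GFP, were kept in the dark during a collection of 3 to 4 h, and were in early nuclear cycle 14. Whole embryos were fixed for 15 min, which is longer than the pulse of light, and picked by stage from a pool. Their chromatin was precipitated with an antibody to GFP. OptoSOS embryos given 1 min (2 ChIP samples) or 30 min of light (3 ChIP samples) served to place active Torso among durations of light.

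Cic is an HMG-box repressor that binds DNA near genes of terminal, dorsoventral and other patterning systems and keeps them off where ERK is inactive. Torso is a receptor tyrosine kinase that is normally active at the embryo's poles, where it works through Ras and ERK. ERK phosphorylates Cic and relieves its repression, so that genes such as tll and hkb come on. In OptoSOS embryos, blue light moves the catalytic domain of SOS, an exchange factor for Ras, to the plasma membrane, which activates Ras and then ERK. TorD4021 is a gain-of-function Torso allele that gives ERK activity without the ligand.

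The deposited signal is 1 matrix of z-scores per condition, in which the replicates are already combined. There is hence no replicate error, no test across samples and no p-value for any difference below. A z-score of 0 is the mean of the noise peaks of that condition, and each peak is given by its mean over 250 bp on either side of the window centre. For ratios, the read coverage behind the z-scores was recovered and divided by that of the noise peaks, here called coverage over noise. Noise was not subtracted, so a peak at the noise level has a coverage of 1 and not of 0. Ratios of weak peaks are thereby held nearer to 1, and shares of a baseline kept include noise. The median peak held 97.2 read equivalents after 5 min of light and 92.6 with active Torso. Intervals on medians are 95% intervals over peaks, and peaks are not replicates of a condition. Intervals on ratios at single peaks are 95% exact intervals on these read equivalents. They cover counting error only, and a peak is called higher or lower beyond counting error where its interval excludes 1. In chromatin from whole embryos, Cic lost from some nuclei and less Cic in every nucleus cannot be told apart. The line, its driver and the source of ERK activity differ together between the groups, so their parts cannot be told apart either.

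Cic binding after 5 min of light looked much like binding with active Torso. It was a little higher before each condition was divided by its own undisturbed embryos. The median z-score over peaks was 3.47 after 5 min of light (95% interval over peaks 3.07 to 3.97) and 2.83 with active Torso (2.14 to 3.40). It was 8.69 without light and 7.29 in wild type. Of all peaks, 73 had the higher z-score after 5 min of light and 30 with active Torso. The median of these differences was 0.717 (0.495 to 1.11). Coverage over noise after 5 min of light was 1.20 times that with active Torso at the median peak (1.12 to 1.27), with quartiles of 0.978 and 1.40 and a range of 0.555 to 2.90.

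At least a 1.5-fold higher coverage after 5 min of light was found at 16 peaks, 15.5% of all, and at least a 1.5-fold lower one at 2, 1.94% of all. Beyond counting error 30 peaks were higher (29.1%), 4 were lower (3.88%), and 69 were neither. This split depends on the scale. With the median ratio set to 1, 11 peaks were at least 1.5-fold higher and 4 lower, and beyond counting error 14 were higher and 20 lower. The peaks' own order along the ratio does not change with this scaling. Ratios between the undisturbed embryos, no light over wild type, ran from 0.525 to 1.74 with a median of 1.19 (1.13 to 1.24). Above the upper end of that range were 13 ratios of 5 min of light to active Torso, and none was below the lower end. That lower end was CG42807 alone, and the next lowest was 0.740 at Shroom. Below 0.740 lay the 4 peaks lower beyond counting error, with ratios of 5 min of light to active Torso from 0.555 to 0.679.

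**Figure D1:**
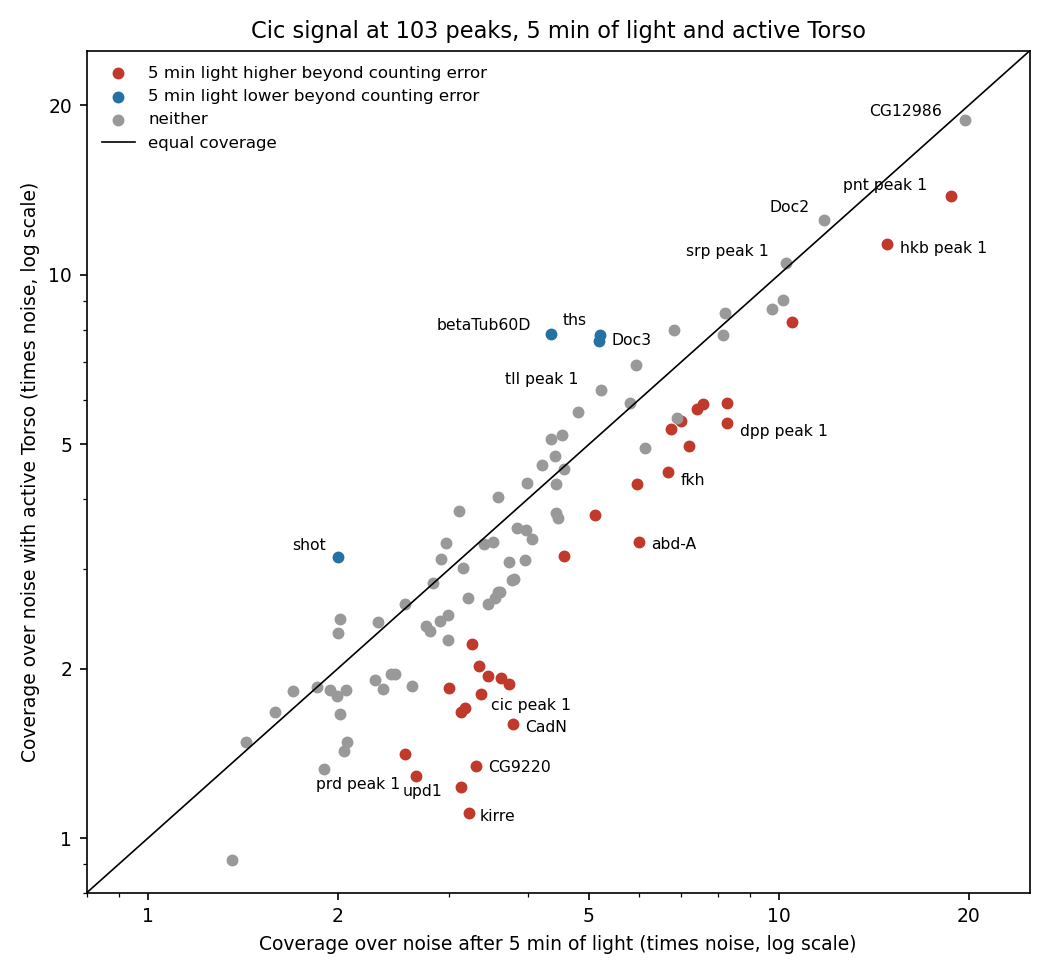
Coverage over noise at each peak of the list after 5 min of light (x axis) and with active Torso (y axis), both in times noise on log scales, where each point is 1 peak from 1 combined matrix per condition. Most points lie along the line of equal coverage, with CG12986 (19.8 after 5 min of light and 18.9 with active Torso) at the top and betaTub60D, ths, Doc3 and shot above the line.

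Peaks that were strong in one condition were strong in the other. The highest coverage in both was at CG12986, a gene without a settled role, with a promoter peak on chromosome X (17819364 to 17820471, dm6). Its z-score was 24.9 after 5 min of light and 23.8 with active Torso, against 32.6 without light and 26 in wild type. The ratio of 5 min of light to active Torso was 1.05 (0.928 to 1.18). Its untagged level in MACS2 was 2.19 times the lowest of all peaks, where the median peak had 1.22, and the part of that background in its signal was not tested. Among the 10 highest peaks of each condition 8 were shared, and among the 25 highest 20 were shared. Between 5 min of light and its own baseline, no light, the shared counts were 6 and 18, and they were the same between active Torso and wild type.

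Across all peaks, log2 coverage over noise after 5 min of light and with active Torso had a Pearson correlation of 0.883 and a Spearman correlation of 0.867. The values were 0.786 and 0.767 for 5 min of light with no light, and 0.670 and 0.660 for active Torso with wild type. They were 0.943 and 0.925 for no light with wild type. These describe peaks that share a library, its depth and the base composition of their DNA. The log2 ratio had an SD over peaks of 0.42, where counting error alone would give 0.22. For no light over wild type the SD was 0.28, and counting error alone would give 0.15. The ratio showed next to no relation to wild type coverage (Pearson -0.05, Spearman -0.03 over all peaks on log2 scales).

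Peaks of the terminal, gap and head genes lay on both sides of equality. The list held 20 genes, of which 6 had peaks, 10 in all. Their median ratio of 5 min of light to active Torso was 1.10, against 1.20 over all peaks. Of the 10, 4 were higher beyond counting error, where 29.1% of all peaks were, and none was lower, where 3.88% of all were. None reached 1.5-fold in either direction. Most of the signal was gone in both at tll, a nuclear receptor gene of the embryo's termini. The z-score of its promoter peak, tll peak 1 (3R, 30851662 to 30852585), was 5.61 after 5 min of light and 6.98 with active Torso, against 35.6 without light and 35.3 in wild type. The ratio was 0.837 (0.667 to 1.05). Each condition has its own window centre. With the active Torso profile moved by 110 bp to match the shape after light it was 0.684 (0.550 to 0.848), lower beyond counting error. Upstream, tll peak 2 (3R, 30849340 to 30850503) went the other way, with z-scores of 4.74 after 5 min of light and 2.90 with active Torso and a ratio of 1.44 (1.09 to 1.90). The third tll peak was weak, with z-scores of 1.33 after 5 min of light and 1.75 with active Torso.

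At hkb, a zinc-finger gene of the termini, the distal peak 1 (3R, 4348112 to 4348940) had a z-score of 18.4 after 5 min of light and 13.8 with active Torso. Without light it was 44.7 and in wild type 32.1. The ratio was 1.31 (1.13 to 1.52), while the share of the baseline kept was 43.8% after 5 min of light and 47.3% with active Torso. At its promoter, hkb peak 2 (3R, 4346449 to 4347038) had 9.57 after 5 min of light and 10.1 with active Torso, a ratio of 0.960 (0.797 to 1.15). The 2 peaks of srp, a GATA factor gene of the endoderm, also lay on either side of 1. The z-score of srp peak 1 (3R, 15988168 to 15988827) was 12.3 after 5 min of light and 12.7 with active Torso, with a ratio of 0.975 (0.826 to 1.15). That of srp peak 2, in an intron (3R, 15989108 to 15989611), was 6.59 after 5 min of light and 4.34 with active Torso, with a ratio of 1.40 (1.10 to 1.78). The peak of fkh, a forkhead factor gene of the gut, had 7.53 after 5 min of light and 4.61 with active Torso and the highest ratio of the list, 1.49 (1.19 to 1.89). The head homeobox gene hbn was near the noise in both, with z-scores of 1.35 after 5 min of light and 0.879 with active Torso, although it had 11.4 without light and 12.4 in wild type.

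**Figure D2:**
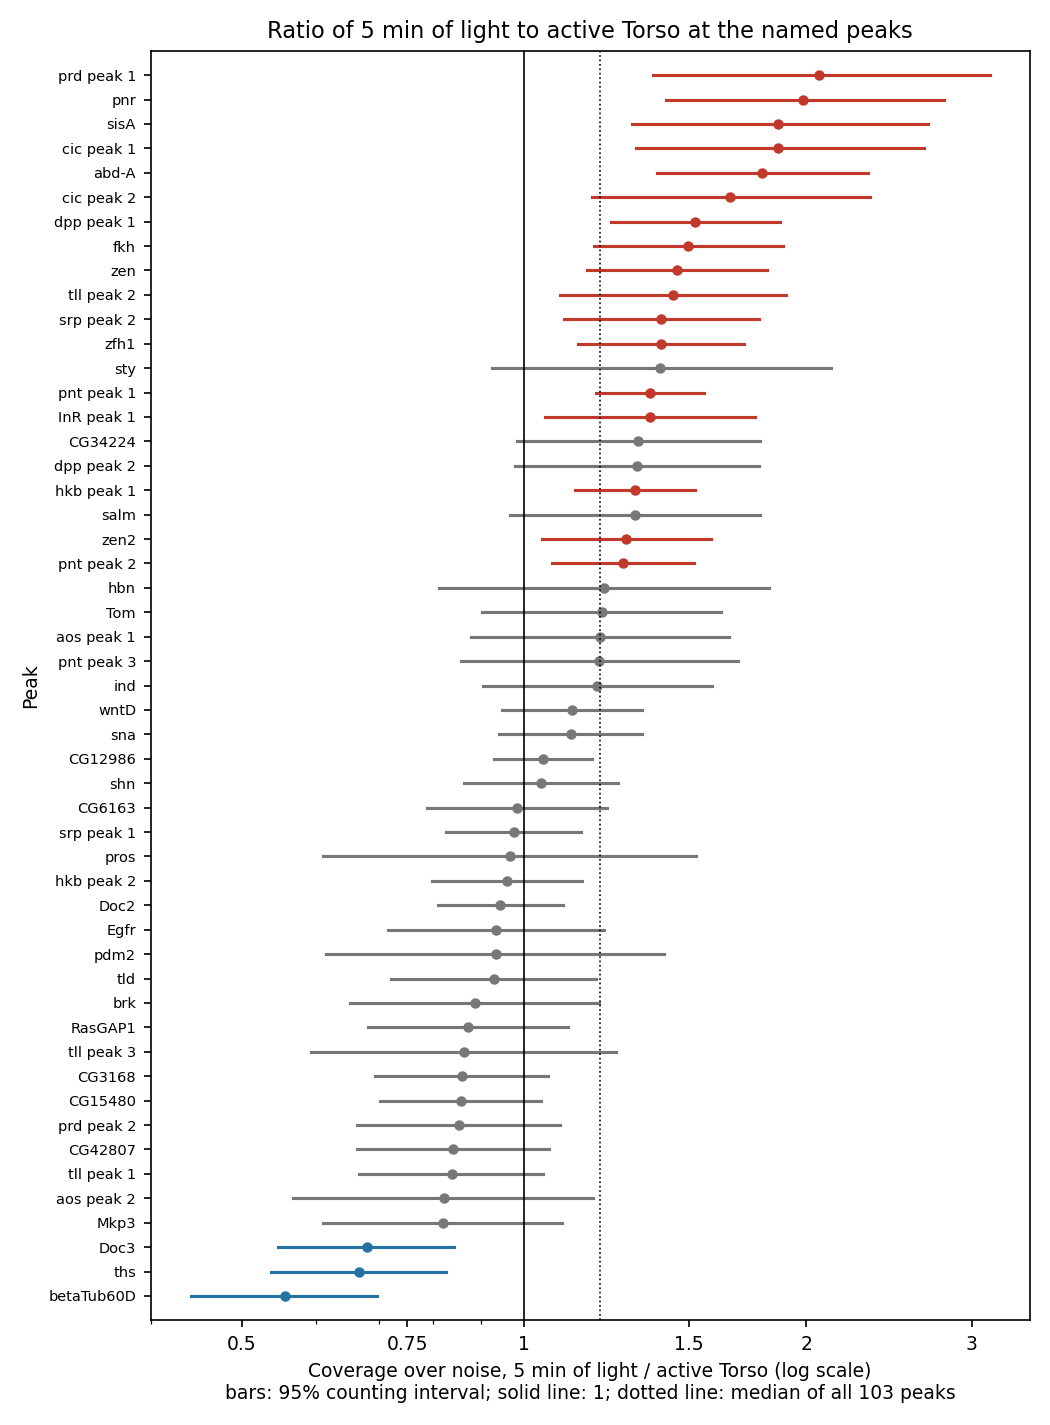
Ratio of coverage over noise, 5 min of light over active Torso, at the 51 named peaks on a log scale, ordered from high to low down the page, with 95% counting intervals as bars. Red peaks, among them prd peak 1 at the top, are higher beyond counting error and blue ones, Doc3, ths and betaTub60D, are lower, while the dotted line marks the median of 1.20.

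Genes known from earlier work as Cic targets had 13 peaks, with a median ratio of 1.20, the same as all peaks. Of these 5 were higher beyond counting error (29.1% of all peaks), none was lower (3.88% of all), and none reached 1.5-fold. The ETS activator gene pnt is a target of ERK signalling, and its promoter peak kept most of its signal in both. Its z-score (pnt peak 1, 3R, 23314231 to 23314688) was 23.6 after 5 min of light and 17 with active Torso, against 28.3 without light and 19.1 in wild type. It kept 86% of its baseline coverage after 5 min of light and 93.8% with active Torso. The ratio of 1.36 (1.19 to 1.56) thus came with a no light coverage that was itself 1.49 times that of wild type. The intronic pnt peak 2 had a similar ratio, 1.27 (1.07 to 1.52), with z-scores of 12.6 after 5 min of light and 9.66 with active Torso. Its shares kept went the other way, 62.9% after 5 min of light and 79.8% with active Torso. The ratio of these shares was 0.788 (0.629 to 0.987), below 1 beyond counting error. At pnt peak 1 it was 0.916 (0.765 to 1.10). The promoter peak of wntD, a Wnt family gene that dampens Toll signalling, had 12.2 after 5 min of light and 10.7 with active Torso, a ratio of 1.12 (0.947 to 1.34). The intronic peak of ind, a homeobox gene of the neuroectoderm, had 4.08 after 5 min of light and 3.20 with active Torso. Its ratio was 1.20 (0.905 to 1.58). A homeobox gene that specifies the amnioserosa is zen, whose peak (3R, 6755319 to 6755883) had 8.26 after 5 min of light and 5.28 with active Torso, a ratio of 1.45 (1.17 to 1.81).

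Genes of the dorsoventral system had ratios from 0.667 to 1.99. There were 14 peaks at 13 of 29 genes, with a median ratio of 1.16, of which 5 were higher beyond counting error (29.1% of all peaks) and 2 lower (3.88% of all). Both lower ones were among the 4 lower peaks of all. An FGF ligand is encoded by ths, which had an intronic peak (2R, 11794246 to 11794722). Its z-score was 5.59 after 5 min of light and 9.08 with active Torso, against 19.2 without light and 15.3 in wild type. The ratio was 0.667 (0.537 to 0.826), just short of 1.5-fold, and with 100 bp instead of 250 bp on each side it was 0.487. It kept 34.4% of its baseline after 5 min of light and 65.3% with active Torso. Doc3, which encodes a T-box factor needed in the amnioserosa, had a distal peak (3L, 9002571 to 9002867) with 5.56 after 5 min of light and 8.85 with active Torso, against 8.94 without light and 5.87 in wild type. The ratio was 0.679 (0.546 to 0.843). Its neighbour Doc2 had z-scores of 14.3 after 5 min of light and 15.3 with active Torso and a ratio of 0.944 (0.810 to 1.10), an interval that overlaps that of Doc3. The ratio of the shares kept was below 1 at Doc2 too, at 0.773 (0.635 to 0.942). The deposited score of ths equals that of zfh1, and that of Doc3 equals that of eIF4A, so which column belongs to which of a pair rests on the order of the list alone. The same holds for cic peak 2 and dan, prd peak 2 and pros, and CG15480 and tal-2A. It also holds for salm and fend peak 2, and for pnt peak 3 and trn. The ratio was 1.79 at eIF4A, 1.48 at dan, 0.966 at pros and 1.17 at tal-2A.

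Higher after 5 min of light were 2 peaks of dorsoventral genes by 1.5-fold or more. At dpp, the BMP ligand gene, peak 1 in an intron (2L, 2456342 to 2457393) had z-scores of 9.69 after 5 min of light and 5.93 with active Torso, a ratio of 1.52 (1.24 to 1.87). The promoter peak of pnr, a GATA factor gene of the dorsal ectoderm (3R, 16034213 to 16034559), had 3.63 after 5 min of light and 1.17 with active Torso, a ratio of 1.99 (1.42 to 2.81), which was 1.54 (1.13 to 2.11) after matching by shape. The homeobox gene zen2 had a ratio of 1.28 (1.04 to 1.58) and zfh1, a zinc-finger homeobox gene of the mesoderm, one of 1.40 (1.14 to 1.71). The mesoderm gene sna (ratio 1.12, 0.940 to 1.34), the repressor gene brk (0.886, 0.651 to 1.20) and tld, a protease gene of the BMP system (0.929, 0.722 to 1.19), were neither higher nor lower beyond counting error.

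**Figure D3:**
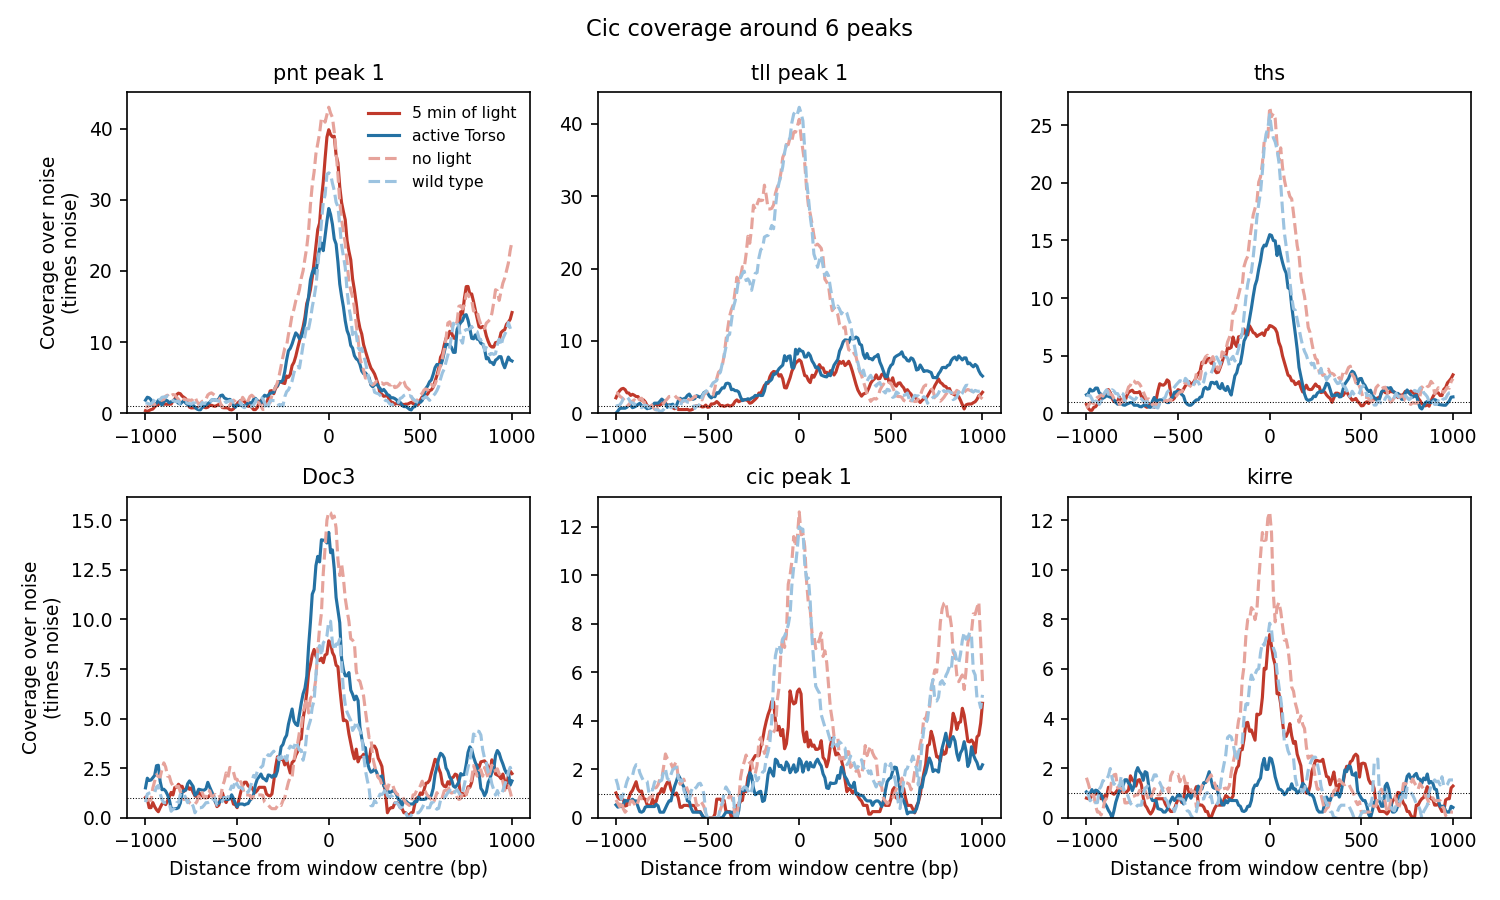
Coverage over noise (times noise, y axis) against distance from the window centre in bp (x axis) at 6 peaks, for 5 min of light, active Torso, no light and wild type. At ths and Doc3 the active Torso profile is the higher of both ERK conditions and at pnt peak 1, cic peak 1 and kirre the 5 min profile is. Right-hand rises at pnt and cic belong to neighbouring peaks, and kirre was chosen after its values were seen.

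The list of receptor tyrosine kinase and ERK genes had 11 peaks, with a median ratio of 1.20, of which 4 were higher beyond counting error (29.1% of all peaks) and 1, ths, was lower (3.88% of all). Cic's own gene had the highest ratios of the list. The intronic cic peak 1 (3R, 20291087 to 20291399) had a z-score of 3.15 after 5 min of light and 1.07 with active Torso, against 6.99 without light and 6.52 in wild type. Its ratio was 1.87 (1.32 to 2.67), and that of cic peak 2 (3R, 20291932 to 20292325), at z-scores of 3.11 after 5 min of light and 1.36 with active Torso, was 1.66 (1.18 to 2.34). At aos, which encodes a secreted inhibitor of the EGF receptor, the promoter peak 1 had a ratio of 1.20 (0.877 to 1.65) and the intronic peak 2 one of 0.822 (0.567 to 1.18). Other negative regulators were within counting error in coverage as well, with 0.819 (0.610 to 1.10) at the ERK phosphatase gene Mkp3 and 1.40 (0.924 to 2.12) at sty, the Sprouty gene. The ratio of the shares kept was below 1 beyond counting error at Mkp3, at 0.709 (0.511 to 0.986), but not at sty, at 0.802 (0.499 to 1.29). The peak of Egfr, the receptor gene, had z-scores of 3.97 after 5 min of light and 4.36 with active Torso, against 17.1 without light and 14.1 in wild type, and a ratio of 0.934 (0.715 to 1.22). RasGAP1, which encodes an inhibitor of Ras and was in no list, had 4.70 after 5 min of light and 5.60 with active Torso, a ratio of 0.872 (0.682 to 1.11). It kept 60.8% of its baseline after 5 min of light and 97% with active Torso, a ratio of shares of 0.626 (0.456 to 0.859).

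Pair-rule, Hox, neural and sex determination genes had 7 peaks with a median ratio of 1.31. Of these 3 were higher both beyond counting error, as were 29.1% of all peaks, and by more than 1.5-fold, as were 15.5% of all. None was lower. The Hox gene abd-A had an intronic peak (3R, 16826336 to 16826817) with z-scores of 6.64 after 5 min of light and 3.13 with active Torso, against 11.5 without light and 8.91 in wild type. The ratio was 1.79 (1.39 to 2.32). The promoter peak of sisA, a bZIP gene that is one of the X-linked signals of sex determination (X, 11322214 to 11322727), had 2.90 after 5 min of light and 0.938 with active Torso, a ratio of 1.87 (1.30 to 2.70). At the pair-rule gene prd, peak 1 had 2.20 after 5 min of light and 0.386 with active Torso, a ratio of 2.06 (1.37 to 3.14). Its stronger neighbour under ERK activity, prd peak 2, had 4.47 after 5 min of light and 5.49 with active Torso, a ratio of 0.852 (0.664 to 1.09). The 41 peaks of genes in any of these lists had a median ratio of 1.21, and the 62 others had 1.20.

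Where the conditions differed most, the lower one was often near the noise. Of the 16 peaks at least 1.5-fold higher after 5 min of light, 13 had a coverage under 2 times noise with active Torso. Such a coverage was found at 30 peaks with active Torso and at 9 after 5 min of light. The highest ratio of all peaks was 2.90 (1.92 to 4.48) at the promoter of kirre, an immunoglobulin superfamily gene of muscle founder cells (X, 2988639 to 2988894). Its z-score was 2.96 after 5 min of light and 0.148 with active Torso, against 6.80 without light and 4.06 in wild type. Next were upd1, a JAK-STAT ligand gene, with 2.55 (1.71 to 3.87), CG9220 with 2.46 (1.68 to 3.67) and CadN, a cadherin gene, with 2.37 (1.67 to 3.43). These 4 genes were chosen after their values were seen.

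The lowest ratio belonged to a weak wild type peak. The distal intergenic peak of betaTub60D, a beta tubulin gene (2R, 24313219 to 24313405), had a z-score of 4.46 after 5 min of light and 9.12 with active Torso, against 3.05 without light and 2.71 in wild type. The ratio was 0.555 (0.441 to 0.696). Coverage was above the baseline in both lines, at 1.34 times no light after 5 min of light and 2.67 times wild type with active Torso. The fourth lower peak, in an intron of the cytoskeletal linker gene shot and chosen after its value was seen, had 1.33 after 5 min of light and 2.88 with active Torso, a ratio of 0.634 (0.445 to 0.896).

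The baselines of the conditions differed as well. Beyond counting error, 48 peaks had more coverage without light than in wild type (46.6%) and 3 had less (2.91%). Each condition was therefore divided by its own undisturbed embryos. The median peak kept 49.4% of its coverage after 5 min of light (44.6 to 53.6) and 45.5% with active Torso (41.9 to 48.4). These shares include noise and are not shares of bound Cic. At hbn, for instance, the 16.8% kept with active Torso was a coverage of 1.66 times noise. Coverage was lower than in the baseline beyond counting error at 96 peaks after 5 min of light (93.2%) and at 90 with active Torso (87.4%), and at 89 of them in both. It was higher at 1 peak after 5 min of light (0.971%) and at 3 with active Torso (2.91%). Wild type libraries also chose the peaks, which can make wild type values at them high, and this was not tested.

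The ratio of the 2 shares, 5 min of light over active Torso, had a median of 1.02 (0.922 to 1.10) and ran from 0.465 to 2.40. It was above 1 at 52 peaks and below at 51. Beyond counting error 15 peaks were above 1 (14.6%) and 14 were below (13.6%). Across peaks the log2 shares kept in the 2 lines, which have no sample in common, had a Pearson correlation of 0.744 and a Spearman correlation of 0.683. The baselines that they divide by, no light and wild type, had a Pearson correlation of 0.943 in log2 coverage. Dividing by such like values can raise the correlation of the shares, and by how much was not tested. In both lines tll peak 1 kept little, 19.2% after 5 min of light and 23.8% with active Torso, and so did hbn, with 21.4% after 5 min of light and 16.8% with active Torso. In both lines Doc2, sna and pnt peak 1 kept much, with 63.7%, 76% and 86% after 5 min of light and 82.4%, 84.7% and 93.8% with active Torso.

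**Figure D4:**
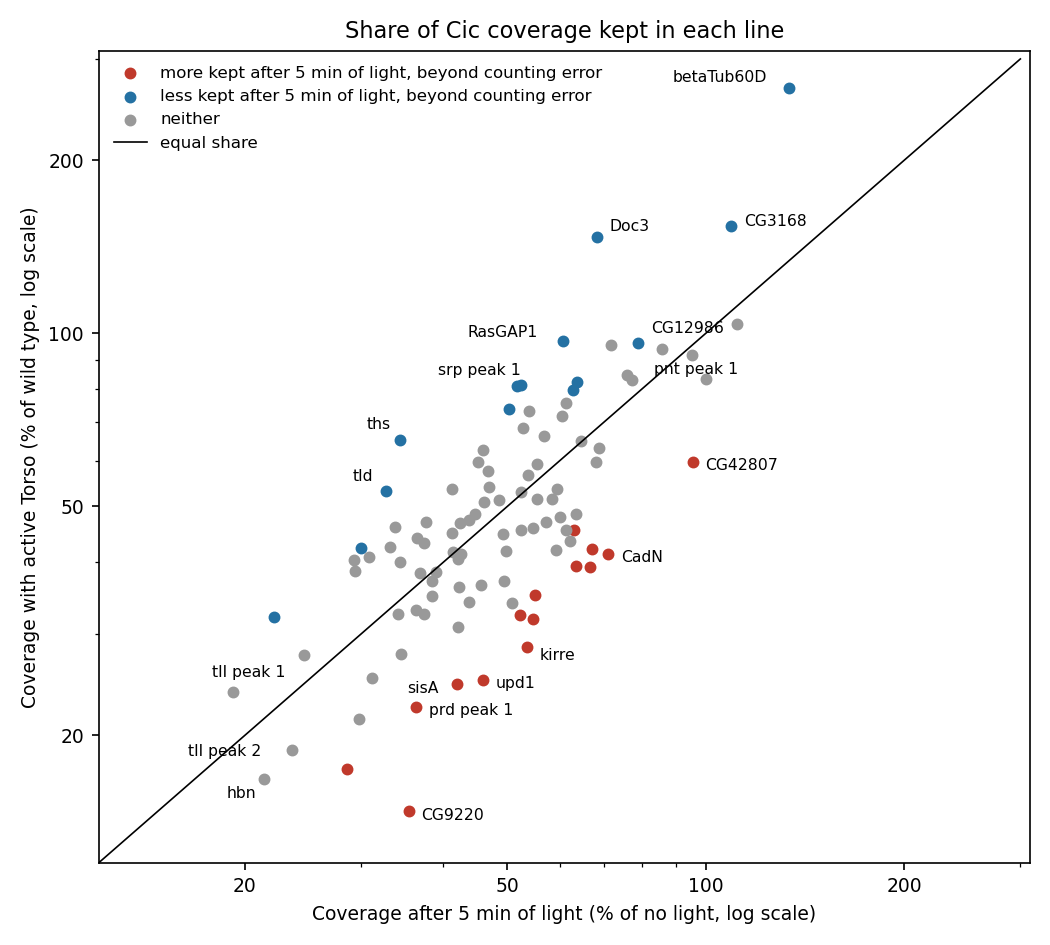
Share of coverage kept at each peak of the list after 5 min of light (x axis, percent of no light) and with active Torso (y axis, percent of wild type), on log scales. Most peaks lie near the line of equal share, tll peak 1 and hbn at the low end, and Doc3, betaTub60D and ths lie above it.

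At 13 peaks both the ratio of coverage and the ratio of shares kept were above 1 beyond counting error, and at 4 both were below. The 4 were betaTub60D, shot, ths and Doc3, the same that had a lower coverage. The ratio of shares was 0.527 (0.409 to 0.679) at ths and 0.502 (0.346 to 0.726) at betaTub60D. Among the 13 were cic peak 1 with 1.72 (1.15 to 2.56), cic peak 2 with 1.62 (1.08 to 2.41), sisA with 1.71 (1.15 to 2.55), pnr with 1.62 (1.10 to 2.38), prd peak 1 with 1.62 (1.04 to 2.53) and abd-A with 1.39 (1.02 to 1.89). The highest was CG9220, with 2.40 (1.59 to 3.63), where 35.5% was kept after 5 min of light and 14.8% with active Torso. Dividing by the baseline moved some peaks past counting error that had nearly equal coverage. For srp peak 1 the ratio of shares was 0.646 (0.524 to 0.797), with 52.5% kept after 5 min of light and 81.3% with active Torso. For tld it was 0.616 (0.460 to 0.824). CG42807, where no light coverage was 0.525 times that of wild type, had a ratio of coverage of 0.840 (0.663 to 1.06) and a ratio of shares of 1.60 (1.18 to 2.17).

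Active Torso lay nearer to 5 min of light than to the other durations at most peaks. Of the embryos given no, 1, 5 or 30 min of light, those given 5 min had the coverage nearest to active Torso at 59 peaks and those given 30 min at 41. No light was nearest at 2 peaks and 1 min of light at 1. The coverage of active Torso was between those of 5 and 30 min at 47 peaks, at or above both at 28, and at or below both at 28. At the median peak it was about as far from either, with a ratio of active Torso to 30 min of light of 1.21 (1.11 to 1.37). The ratio of 5 min of light to active Torso was 1.20. Beyond counting error, active Torso was above 30 min of light at 38 peaks and below it at 8. None of these values was divided by a baseline. At pnt peak 1 the z-score was 23.6 after 5 min and 2.45 after 30 min of light, and with active Torso it was 17. At srp peak 1 it was 12.3 after 5 min and 2.48 after 30 min of light, and 12.7 with active Torso. By contrast CadN had 3.70 after 5 min and 3.20 after 30 min of light, and 0.792 with active Torso. The log2 coverage of active Torso had a Pearson correlation of 0.711 with 30 min of light over all peaks.

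Profile shapes were compared as well. At the 23 peaks with 5 or more times noise in both conditions, the profiles after the best shift had a median correlation over windows of 0.947, with a low of 0.689 at hkb peak 2, and the median width above the midpoint of the profile's height was 260 bp after 5 min of light and 230 bp with active Torso. Their median ratio was 1.12, from 0.667 at ths to 1.52 at dpp peak 1. At the other 80 peaks the median shape correlation was 0.747 and the median ratio 1.21. The best shift between the profiles was at most 50 bp at 61 peaks, at most 100 bp at 82, and above 200 bp at 11, among them sisA and cic peak 2. Median coverage within 50 bp of the centre was 5.47 times noise after 5 min of light and 4.76 with active Torso. In the outer parts of the windows, 700 to 1000 bp away, it was 1.30 after 5 min of light and 1.32 with active Torso.

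By chromosome arm, X had a median ratio of 1.33, and 5 of its 13 peaks were at least 1.5-fold higher after 5 min of light and none lower, where 15.5% of all peaks were higher and 1.94% lower. Whether the arms differ was not tested. The 5 higher ones were sisA, fend peak 1, CG9220, upd1 and kirre, of which all but sisA were picked after their values were seen. With active Torso all 5 were near the noise, with coverage from 1.11 times noise at kirre to 1.70 at sisA. Median coverage with active Torso was 2.25 on X and 3.12 over all peaks. The median X peak kept 41.9% of its coverage after 5 min of light and 32.5% with active Torso. On 2R, where the median ratio was 1.02 over 14 peaks, 3 were higher beyond counting error (29.1% over all peaks) and 3 lower (3.88% over all peaks), namely ths, shot and betaTub60D. The median ratio was 1.24 over 17 peaks on 2L, 1.13 over 25 on 3L and 1.24 over 34 on 3R. By annotation it was 1.20 for 27 promoter and 41 intronic peaks and 1.06 for 14 distal intergenic ones.

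**Figure D5:**
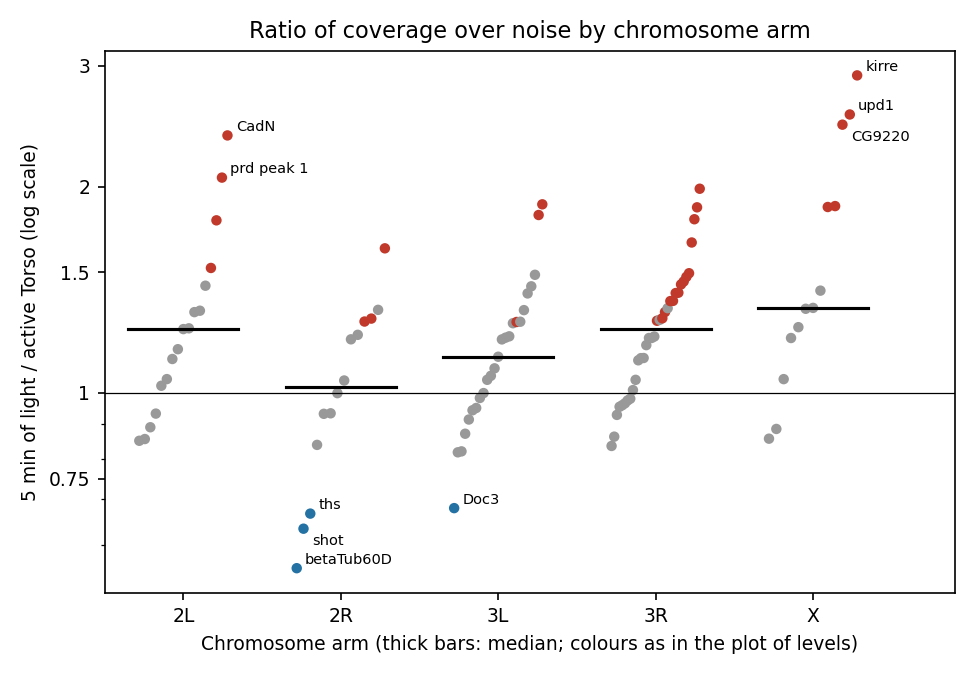
Ratio of coverage over noise, 5 min of light over active Torso (y axis, log scale), by chromosome arm (x axis), where each point is a peak, ordered within its arm, and thick bars are medians. The 3 highest ratios, 2.90 at kirre, 2.55 at upd1 and 2.46 at CG9220, are on X, and 3 of the 4 peaks lower beyond counting error are on 2R. Coverage with active Torso was near the noise at kirre (1.11 times noise), upd1 (1.23) and CG9220 (1.34).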

How the data were processed

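Reads were processed by the authors. Per the submitters' processing notes, the tools were Trim Galore, BWA 0.7.17-r1188, SAMtools, MACS2 and ChIPseeker, on build dm6. Peaks were called with MACS 2.1.2 on 6994179 wild type and 5712080 untagged tags of 74 bp, extended to 145 bp, at a q threshold of 0.01, per the file headers. Fold enrichment, a ratio of the pileup to the local level in untagged embryos, and the pileup, a coverage signal, were deposited by the authors for each call, and so was a peak score. Values by condition were deposited as a z-score, normalised on noise peaks, in 201 windows of 10 bp over 2 kb for each of 103 peaks. Each matrix combines the replicates, so depth per sample is not known here. Unused columns of per-sample values numbered 0.

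All z-scores of a matrix were whole steps above the lowest, to within 1e-06 of a step. The steps were read as read bases and the lowest value as no coverage. Of 14 isolated runs of coverage over 6 conditions 11 were 74 or 75 bases long, the length of unextended reads, with 2 of 2 after 5 min of light but 0 of 1 each with active Torso and in no light. Noise coverage was then 3.90 reads after 5 min of light and 4.30 with active Torso. Read equivalents are read bases divided by 74. Each condition has its own window centres. The highest point of the window lay within 200 bp of its centre at 89 peaks after 5 min of light and at 80 with active Torso. Centres chosen by a condition's own signal can raise weak values. Ratios have exact conditional binomial intervals, ratios of shares intervals on the log scale from 4 counts, and medians order-statistic intervals over peaks. The calculations used Python 3.11.15, numpy 2.4.6, pandas 2.3.3 and scipy 1.17.1, and recovery of known ratios was checked on simulated data.

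The comparison, the gene lists and the rule for named peaks were chosen with earlier results of these data known. Named were all peaks of listed genes, the 10 highest and 10 lowest ratios among peaks with a mean coverage at or above the median, the 5 nearest to 1 among the 25 strongest, and genes with peaks on both sides of 1. Where a gene had several peaks, numbers follow the deposited score. Gene names and annotation are the authors'. Alternatives changed the stretch averaged, the centring, the scaling, the fold and the peaks kept. A planned search for Cic octamers was not run, since no genome was used here. Input libraries were not used here.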

Additional observations from a re-analysis of the deposited data

Results flagged for a closer look

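At Doc3 the lines moved in opposite directions beyond counting error. Coverage over noise after 5 min of light was 0.683 times that of no light (0.549 to 0.847), whereas with active Torso it was 1.47 times that of wild type (1.19 to 1.83). The ratio of the shares kept was 0.465 (0.345 to 0.626), the lowest of all peaks. The z-scores were 5.56 after 5 min of light and 8.94 without light, and 8.85 with active Torso and 5.87 in wild type. No light coverage was itself 1.46 times that of wild type. The difference between the lines was not tested, since the replicates are combined, and no other peak had such opposite calls. Which column is that of Doc3 rests on the order of the list, since eIF4A has the same score. At eIF4A coverage was 0.551 times no light after 5 min of light and 0.351 times wild type with active Torso.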

How the results depend on the processing

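No paired analysis was possible because the replicates of each condition are combined in 1 matrix, and for the same reason no replicate could be left out. The median ratio of 5 min of light to active Torso was between 1.14 and 1.22, apart from the scaling that sets it to 1, and the Pearson correlation over peaks between 0.858 and 0.894. The number of peaks at least 1.5-fold lower, 2 as reported, was 4 with 100 bp on each side, 1 with 500 bp, 4 by the highest 10 bp value, 1 after matching by shape and 4 with the median ratio set to 1. With a smaller fold, 45 peaks were higher and 4 lower, and at a fold of 2, 5 were higher and 0 lower. The median difference of z-scores was 0.449 with 500 bp and 1.28 by the highest value. Alternatives chosen after seeing the data were the correlations under other settings and a limit to peaks at 2 times noise in both conditions. That limit leaves 72 peaks, and gave a median ratio of shares of 0.911 and 3 peaks at least 1.5-fold higher, by construction fewer. Of the 51 named peaks, InR peak 1 alone reversed. It had 1.36 (1.05 to 1.76) as reported and 0.992 by the highest value, and the cause was not tested. The others kept the direction of any call, and at most 9 left their counting interval under 1 setting. At this depth the smallest ratio called higher beyond counting error was 1.27 and the largest not called was 1.49. Peaks called in wild type alone were measured, so sites bound only under ERK activity are not seen.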

Other observations

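Values of 2 further sets of neighbouring peaks follow, chosen after their values were seen, and differences among neighbours were not tested. In introns near ind, the peaks annotated to Rpn12R, a proteasome-related gene, had z-scores of 7.65 (peak 1) and 3.79 (peak 2) after 5 min of light, and 5.76 and 3.40 with active Torso. The ratios were 1.27 (1.02 to 1.58) at peak 1 and 1.09 (0.820 to 1.44) at peak 2. In a cluster on 2L, CG16813 had 7.84 after 5 min of light and 6.09 with active Torso, whereas CG15480 beside it had 7.75 after 5 min of light and 9.30 with active Torso, and neither ratio was beyond counting error.

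Ratios did not follow the strength of wild type binding or the untagged level. The median ratio of 5 min of light to active Torso was 1.20 for the 34 weakest peaks in wild type, 1.21 for the next 35 and 1.19 for the 34 strongest. It was 1.17 for the 21 peaks whose untagged level was above 1.5 times the lowest, and 1.21 for the 82 others.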
